A study of Saccharomyces cerevisiae with 16 samples.

Results

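The 5′ domain of yeast 18S rRNA was described, from U1 to A623 of 18S, which lies directly downstream of the 5′ external transcribed spacer (5′ ETS) in the pre-rRNA. Its members were chosen by position alone and comprised 187 A, 116 C, 141 G and 179 U. Dimethyl sulfate (DMS) reads A and C, so 303 sites carried the readout, of 3042 A and C bases in the deposited profile of the pre-rRNA. Sites are named by base and 18S nucleotide, C17 being the C at nucleotide 17.

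The material was Saccharomyces cerevisiae small subunit (SSU) processome, isolated by a TAP tag on its protein Utp10 from cells grown in YPD to mid-log phase. All cells carried this tag, with Has1 either wild type (Has1-WT, here WT) or mutant (Has1-H375A, here H375A). Libraries were DMS-treated (1% DMS, 30 °C, 5 min) or left untreated (NC in the labels), which gave 4 groups of 4 libraries, numbered 1 to 4 and stated to be biological replicates. Strain background, whether a wild-type Has1 copy remained in the mutant, and whether DMS met cells or isolated particles are not stated in the labels. Each value is a mean over all rRNA recovered, so more molecules with an open base and a more open base in each molecule cannot be told apart.

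The SSU processome is the large nucleolar assembly in which 18S first folds while still joined to the spacers. The 5′ domain is transcribed first among the domains of 18S and forms the body of the small subunit. Small nucleolar RNAs (snoRNAs) act in it as folding partners. Box A of U3 pairs near the very 5′ end, where it keeps apart strands that later close the central pseudoknot, and U14 pairs with a second stretch and guides a ribose methylation further along. Has1 is a DEAD-box RNA helicase known in yeast for releasing U14 from pre-rRNA. DMS methylates the base-pairing edge of A and C where pairing or protein does not cover it, and reverse transcriptase leaves a mutation at such a base, so the mutation rate is read as accessibility.

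The stretches that carry the results are printed below as RNA, 5′ to 3′, as read from the deposited profiles. 18S is encoded by the rDNA repeats of chromosome XII (RDN18-1 and RDN18-2 in the RefSeq table of assembly R64), and nucleotides are numbered from the 18S 5′ end, since the profiles name no genome build. In the first stretch, nucleotides 1 to 30, capitals mark the U3 box A segment, 9 to 16, which is followed directly by the called site C17.
18S 5′ end with the box A segment: uaucugguUGAUCCUGccaguagucauaug
In nucleotides 61 to 110, capitals mark the U14 pairing site, 83 to 95.
18S with the U14 site: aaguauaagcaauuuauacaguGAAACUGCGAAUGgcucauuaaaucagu
The next 2 stretches hold the other sites that differed between genotypes, C139 in nucleotides 125 to 155 and A515 and A534 in nucleotides 500 to 545, each in capitals.
18S around C139: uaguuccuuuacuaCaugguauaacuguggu
18S around A515 and A534: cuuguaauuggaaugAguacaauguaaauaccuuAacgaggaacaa
The last pair holds the bases with the highest response to DMS, A188, C191 and A198 in nucleotides 176 to 209 and A492 and C495 in nucleotides 478 to 509, again in capitals.
18S around A188: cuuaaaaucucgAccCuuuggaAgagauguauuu
18S around A492: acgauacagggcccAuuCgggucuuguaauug

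All 303 A and C sites had at least 244 usable reads in every library. Median depth over the domain was 488 to 1996 reads in WT DMS libraries and 532 to 5655 in H375A, whose replicate 3 was the deepest, with 6681 in its untreated control. A rate read from 2 mutated reads of 244 had a 95% Wilson interval of 0.225% to 2.94%, and one from 67 of 6681 an interval of 0.790% to 1.27%, both covering counting error only. The domain was covered 1.28 to 2.21 times as deeply as the rest of 18S. Against the 5′ ETS, which mature ribosomes lack, its depth ratio was 0.415 to 0.729 in WT DMS libraries and 0.528 to 1.07 in H375A DMS libraries. In each genotype replicate 1 differed from the others, having the lowest DMS rates at A, so counts are also given without it.

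DMS raised the mutation rate of A and C across the domain in both genotypes. At A, the mean rate was 0.904%, 1.23%, 1.17% and 1.25% in WT DMS replicates 1 to 4 and 0.937%, 1.19%, 1.23% and 1.28% in H375A. Untreated libraries read 0.421% ± 0.0264 (SD, n = 4) in WT and 0.428% ± 0.0126 in H375A, so DMS gave a 2.70-fold and a 2.71-fold rate. At C the mean was 0.851% ± 0.0857 with DMS and 0.374% ± 0.0378 without in WT, a 2.27-fold rate. In H375A it was 0.815% ± 0.0233 and 0.376% ± 0.0489, a 2.17-fold rate. For A and C every treated library lay above every untreated one in both genotypes. At G, which DMS does not mark on its pairing edge, the rate was 1.13-fold in both genotypes, again with every treated library above every untreated one, and at U it was 1.09-fold in WT and 1.05-fold in H375A with overlapping groups.

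Site by site, mutated reads with DMS were compared with those without by edgeR's quasi-likelihood test, and a site was called at an adjusted p (Benjamini-Hochberg over all tested A and C sites up to the A2 cleavage site behind 18S) under 0.05. In WT, 165 of 302 tested sites of the domain rose with DMS (54.6%), where 46.6% of all 1129 tested sites rose. In H375A, 178 of 303 rose (58.7%), against 49.4% of 1152. None fell in either. Without replicate 1, treated and untreated, the counts were 169 and 184, and without the deep replicate 3 pair 120 sites rose in H375A. A rose at 64.7% of its sites in WT and 69.5% in H375A, C at 37.9% and 41.4%. In both genotypes 146 sites rose, 88.5% of the WT list and 82.0% of the H375A list. A further 19 were called in WT alone and 32 in H375A alone, which does not show a difference between genotypes at those sites, and 106 were called in neither.

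**Figure D1:**
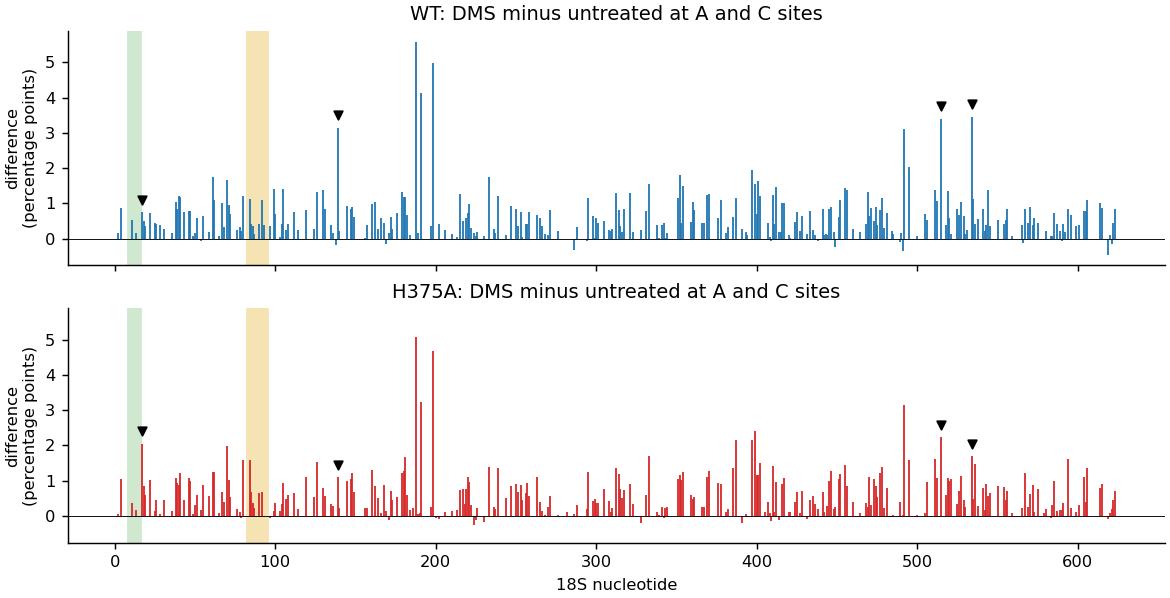
Mean DMS rate minus mean untreated rate (percentage points) at each of the 303 A and C sites against 18S nucleotide, WT above and H375A below. Shading marks the U3 box A segment (9 to 16, green) and the U14 pairing site (83 to 95, yellow), and triangles mark the 4 sites called between genotypes; the tallest lines, at A188, C191 and A198, stand in both genotypes.

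The 12 sites with the highest mean rise were A188, A198, C191, A492, A515, A534, C139, A397, A399, C70, C495 and A387, and all 12 passed the test in both genotypes. They were picked by their rise in the libraries that were tested, so passing gives no independent support. For C139 in H375A the call ended without replicate 3, treated and untreated (edgeR adjusted p = 0.0670). A188 read 6.01%, 5.49%, 5.36% and 6.86% in the WT DMS libraries and 5.56%, 6.11%, 5.23% and 4.61% in H375A, with untreated means of 0.351% and 0.309% (edgeR log2 change 4.10, SE 0.34, adjusted p = 1.89e-31 in WT; 4.18, SE 0.36, 3.95e-24 in H375A). No treated library came near an untreated one. A198 read 5.45% ± 0.891 in WT and 5.11% ± 0.476 in H375A with DMS, over untreated means of 0.468% and 0.431%. C191, the most reactive C, read 3.99%, 4.72%, 3.14% and 5.01% in WT and 3.07%, 2.70%, 3.63% and 4.37% in H375A, over 0.0978% and 0.202% untreated. These 3 sites lie within 11 nucleotides of each other, and the other A and C sites in nucleotides 200 to 213 just behind them, 5 in a row, rose in neither genotype.

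A397 and A399 sit 2 bases apart in a second reactive patch. A397 read 2.35% ± 0.281 in WT and 2.63% ± 0.468 in H375A with DMS, and A399 1.85% ± 0.310 and 2.68% ± 0.557, with untreated means of 0.285% to 0.491% at these sites. In total 44 sites, 32 A and 12 C, had a rise of at least 1 percentage point in both genotypes. By 100-nucleotide windows, the share of A and C sites that rose in WT was lowest at 201 to 300 (43.2%, 19 of 44) and highest at 301 to 400 (65.9%, 29 of 44). In H375A these windows gave 50% and 61.4%, and the highest share was 72.7%, 8 of 11 sites, in the short last window from 601.

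Part of this pattern could be set beside sequence. Segments able to form a perfect hairpin were searched for by sequence alone, with a stem of at least 7 pairs (G-U pairs allowed) and a loop of 3 to 8 bases. The search was made after the rates had been seen and its result is a description without a test. It found 5 hairpins, of which 2 overlap at 323 to 330 and cannot form together. A323, a loop base of the hairpin at 309 to 330 and a stem base of that at 323 to 345, was counted with the loops. Over the 5, the 12 A and C of loops read 1.52% ± 0.114 with DMS in WT and 1.52% ± 0.0667 in H375A, with 10 and 11 of 12 called. The 31 A and C of stems read 0.703% ± 0.0458 and 0.698% ± 0.0317, with 9 and 6 of 31 called. The 260 other A and C read 1.04% ± 0.136 and 1.05% ± 0.107, with 146 and 161 of 260 called (56.2% and 61.9%). The loop bases include A492, C495 and C70, which are among the 12 highest rises and lift the loop mean. Untreated, loops read 0.346% and 0.344% and stems 0.363% and 0.391%. Loops were thus above stems in every DMS library, 1.35% to 1.59% against 0.636% to 0.733%.

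**Figure D2:**
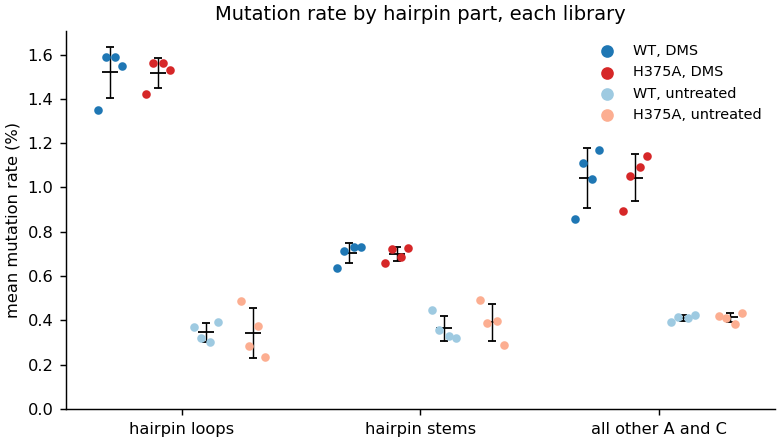
Mean mutation rate (%) per library over the A and C of hairpin loops (12 sites), hairpin stems (31) and all other A and C (260); points are libraries, black bars the mean ± SD of 4. Loops lie highest and stems lowest in the DMS libraries of both genotypes, and the 3 parts are alike without DMS.

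The longest of these, with a 10-pair stem and a 4-base loop, spans nucleotides 482 to 505 and is shown with stems in lower case and the loop in capitals.
Hairpin with A492 and C495 in its loop: uacagggcccAUUCgggucuugua
A492 read 2.31%, 3.73%, 3.69% and 3.32% in the WT DMS libraries and 2.56%, 3.59%, 3.82% and 4.08% in H375A, over untreated means of 0.138% and 0.373%. C495 read 2.51% ± 0.660 and 2.02% ± 0.279 with DMS, over 0.473% and 0.432%. The 8 A and C of the stem averaged 0.435% ± 0.136 in WT and 0.476% ± 0.0706 in H375A with DMS, against 0.338% and 0.425% without. Its 6 consecutive A and C sites from 483 to 491 rose in neither genotype. The 3-base loop of the hairpin at nucleotides 63 to 79, in front of the U14 site, holds C70.
Hairpin with C70 in its loop: guauaagCAAuuuauac
C70 read 2.0% ± 0.311 in WT and 2.26% ± 0.280 in H375A with DMS, over 0.347% and 0.273% untreated. The other 2 bases of that loop rose in both genotypes too, while 1 of the 6 A and C in its stem did in each genotype. In the hairpin of nucleotides 108 to 129, loop and stem were close, with 0.990% ± 0.381 at its lone loop A and 1.18% ± 0.323 in the stem with DMS in WT, and 1.31% ± 0.328 and 1.27% ± 0.192 in H375A. They were also close in the hairpin of nucleotides 309 to 330. Its loop read 1.03% ± 0.0681 and its stem 0.844% ± 0.122 with DMS in WT, and 1.02% ± 0.0691 and 0.912% ± 0.185 in H375A.

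The U14 pairing site was measured at 7 A and C bases, 5 of which rose with DMS in both genotypes. In the whole domain 146 of 303 A and C sites did. Most bases of the site are A, and over the domain A rose at 64.7% of sites in WT and 69.5% in H375A. A84 responded most clearly. It read 0.938%, 2.05%, 1.25% and 1.47% in the WT DMS libraries and 1.80%, 1.93%, 1.34% and 2.53% in H375A, with untreated means of 0.312% ± 0.163 and 0.325% ± 0.193. The genotypes overlapped, and both rises passed (edgeR log2 change 2.27, SE 0.42, adjusted p = 3.60e-07 in WT; 2.11, SE 0.37, 1.52e-07 in H375A). A92 read 0.868%, 1.24%, 2.05% and 3.0% in WT and 0.661%, 1.96%, 1.65% and 2.48% in H375A, over untreated means of 0.694% and 1.03%. Its replicates spread widely in each genotype, lowest in replicate 1 and highest in replicate 4 of both. A85 read 0.949% ± 0.473 with DMS in WT and 1.36% ± 0.367 in H375A, A86 0.514% ± 0.315 and 0.499% ± 0.168, and C90 0.888% ± 0.384 and 0.859% ± 0.20. C87 and A93 rose in neither. C87 read 0.562% in WT and 0.619% in H375A with DMS, against 0.426% and 0.409% without.

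Calls at 4 of these U14 sites were lost when single libraries were left out. Those of A84 in both genotypes, and of C90 in H375A, held under every alternative run. By edgeR, the WT call of C90 (adjusted p = 0.0483) ended without DMS replicate 2, 3 or 4, or untreated replicate 1, 2 or 3 (0.0676 to 0.292). That of A85 (0.0262) ended without DMS replicate 2 or 3 or untreated replicate 2 (0.0901 to 0.140), that of A86 (0.00248) without DMS replicate 2 (0.136), and that of A92 (0.00379) without DMS replicate 3 (0.0548). In H375A, the calls of A85 (0.00866), A86 (0.00994) and A92 (0.00863) ended without DMS replicate 3 (0.0585, 0.182 and 0.0611), and A92 also without DMS replicate 2 (0.0568). DESeq2 did not call A85 or C90 in WT (adjusted p = 0.119 and 0.177), nor A85, A86 or A92 in H375A (0.0654, 0.0775 and 0.116). Scaling from G and U sites ended the WT calls of A85 (0.0764) and C90 (0.104).

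Between genotypes, no tested base of the U14 site was called in the DMS libraries, and C87 and A93 were not in the test. The 5 tested bases of the site had edgeR log2 changes (H375A over WT) of 0.12 at A84, 0.29 at A85, -0.16 at A86, 0.16 at C90 and 0.04 at A92. Their edgeR adjusted p was 0.839 to 0.980. At A92 the mean scaled rate was lower in H375A, 1.62% against 1.69% in WT, and at the others it went with the sign of the edgeR change. Averaged over these 5 and scaled so that the median SSU site is equal between libraries, the site read 0.936%, 1.09%, 1.06% and 1.16% in WT and 1.33%, 1.17%, 1.06% and 1.41% in H375A. H375A replicates 1, 2 and 4 lay above all WT libraries and replicate 3, the deepest, within them. The log2 difference was 0.222 with an SE of 0.112 and a pooled SD of 0.158. Untreated, the same bases read 0.435% ± 0.149 and 0.479% ± 0.153. With the scaling taken from 25S sites, which moves log2 changes by -0.13 on average over libraries, the difference was 0.096.

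At the U3 box A segment, a single base responded. A11 read 0.742%, 0.749%, 0.721% and 0.412% with DMS in WT and 0.197%, 0.561%, 0.401% and 0.537% in H375A, with untreated means of 0.126% ± 0.0544 and 0.0518% ± 0.0600. Genotypes overlapped, WT replicate 4 being the low one of its group. A11 rose with DMS in both (edgeR log2 change 2.24, SE 0.52, adjusted p = 8.59e-05 in WT; 2.39, SE 0.57, 1.31e-04 in H375A), and the genotypes did not pass (log2 change -0.71, adjusted p = 0.405). C13 and C14 stayed uncalled, at 0.360% and 0.203% with DMS in WT and 0.333% and 0.218% in H375A, against 0.176% to 0.249% without.

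**Figure D3:**
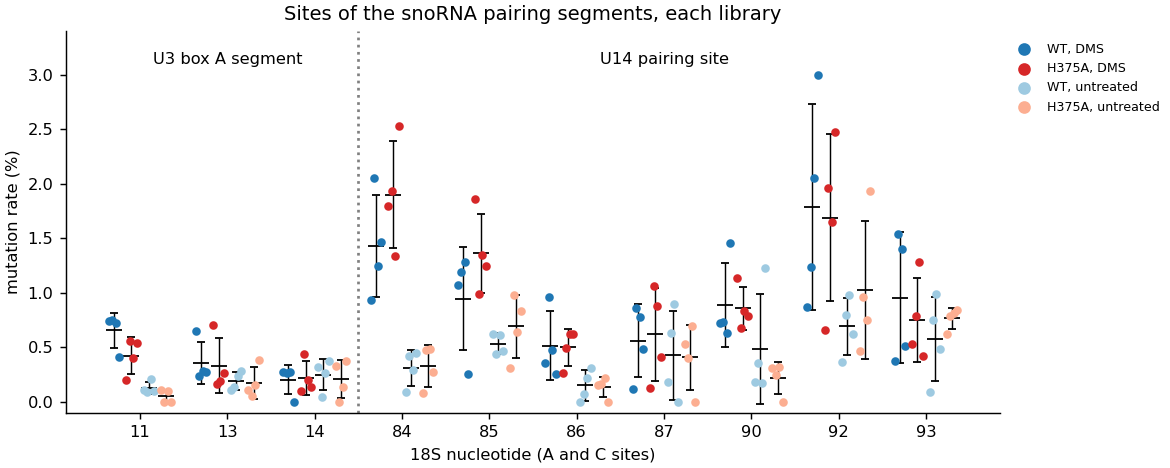
Mutation rate (%) at the A and C sites of the U3 box A segment (nucleotides 11, 13 and 14) and the U14 pairing site (84 to 93) in each library; points are libraries of the 4 groups, black bars the mean ± SD of 4. WT and H375A DMS points overlap at every site, and nucleotides 84 and 92 reach the highest rates.

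U14 also guides the 2′-O-methylation of C414. C414 read 0.352% ± 0.262 with DMS and 0.171% ± 0.12 without in WT, and 0.313% ± 0.214 and 0.442% ± 0.368 in H375A, and rose in neither. The other A of the domain known as 2′-O-methylated in yeast are each guided by their own box C/D snoRNA. A541 (guided by snR41) rose in both genotypes, from 0.431% to 1.27% in WT and from 0.379% to 1.17% in H375A (edgeR adjusted p = 1.15e-04 and 3.86e-07). A436 (snR87) passed in H375A alone, at 0.774% over 0.449% (edgeR adjusted p = 0.0484). This call ended without DMS replicate 2 or 3 or untreated replicate 1, 3 or 4 of H375A (0.0599 to 0.259), with DESeq2 (0.249), with scaling from G and U sites (0.149) and with a depth minimum of 200 (0.0575). A28 (snR74), A100 (snR51) and A420 (snR52) rose in neither genotype, with DMS means of 0.660% to 1.40%. A619 (snR47) read about the same in all 4 groups, 4.67% ± 1.04 and 5.01% ± 0.604 with DMS and 5.13% ± 1.04 and 5.10% ± 0.483 without.

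Rates this high without DMS were rare. The 5 highest untreated means in the domain were at U216 (5.69% ± 1.12 in WT, 6.58% ± 1.19 in H375A), A619, A594 (2.18% and 2.06%), A599 (1.77% and 1.98%) and C99 (1.33% and 1.59%). Between genotypes in the DMS libraries, A594, A599 and C99 were tested and not called. U216, which is not A or C, and A619, with an untreated rate not under 5%, were outside that test. Over the domain, 0 of 98 tested sites of all 4 bases were called between untreated WT and H375A by edgeR (0% of all 554 tested, lowest adjusted p in the domain 0.997). Without adjustment 0 of the 98 had a p under 0.05, against 1.44% of all tested, and DESeq2 called 0 as well.

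Between the DMS libraries of the genotypes, 4 of the 219 tested A and C sites of the domain differed by edgeR's quasi-likelihood test, which took reads relative to depth and to the median site. This was 1.83% of them, where 3.59% of all 725 tested SSU sites were called. One of the 4 was higher in H375A (1.10% of all tested sites were) and 3 were lower (2.48%). The 84 other A and C sites were not in the test, as their rise over both genotypes was under 0.2 percentage points or their untreated rate was not under 5%. The median log2 change was 0.099 in the domain and 0.020 over all tested sites, and the median size without sign 0.23 and 0.25. The scaling was set on the tested SSU sites, those of the domain included, so a small median over all tested sites was built in. The 219 sites averaged 1.19% ± 0.0413 in WT and 1.21% ± 0.0340 in H375A after scaling (log2 difference 0.030, SE 0.032), a difference that turned to -0.096 with scaling from 25S sites. Across the 303 sites, the mean DMS rates of the genotypes correlated at r = 0.90 and rho = 0.89, a description over sites that share libraries and depth. Untreated rates of the genotypes correlated at r = 0.92 over these sites, and the rises with DMS at r = 0.86. The 0.90 therefore does not by itself describe agreement in the DMS response.

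**Figure D4:**
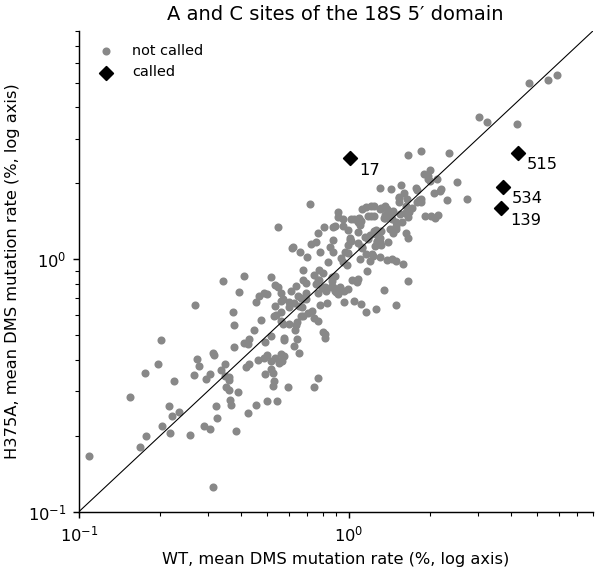
Mean DMS mutation rate in H375A against WT (%, both axes logarithmic) for the 303 A and C sites, with the line of equal rates. Diamonds mark the 4 called sites: C17 lies above the line, and C139, A515 and A534 lie below it.

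C17, the first C behind the box A segment, was more reactive in H375A. It read 1.08%, 0.982%, 1.16% and 0.808% in the WT DMS libraries and 2.60%, 2.90%, 1.83% and 2.71% in H375A. Every H375A library was above every WT library. Untreated it read 0.268% ± 0.0407 in WT and 0.466% ± 0.298 in H375A, where replicates 1 and 4 gave 0.670% and 0.767%. The mean rate was 2.49 times that of WT (edgeR log2 change 1.17, SE 0.24, adjusted p = 6.22e-04), and the call held with any library left out. In mature 18S, C17 is in a strand that pairs with nucleotides near the 5′ end in helix 1, beside the central pseudoknot, and the letters 17 to 20 can form 4 Watson-Crick pairs with 4 to 7. None of its tested neighbours within 10 bases passed, and they went both ways. C18 read 0.550%, 0.507%, 0.762% and 0.812% in WT and 0.914%, 1.22%, 0.855% and 1.31% in H375A, with no overlap (log2 change 0.65, edgeR adjusted p = 0.366). A19, A22 and A26 had log2 changes of 0.35, 0.52 and 0.31, and A11 and C25 of -0.71 and -0.42.

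C139 was less reactive in H375A. It read 2.40%, 4.19%, 3.76% and 4.35% in WT DMS libraries and 1.23%, 1.03%, 1.93% and 2.17% in H375A, and the groups did not overlap, although WT replicate 1 and H375A replicate 4 came close. Untreated means were 0.528% ± 0.404 and 0.499% ± 0.295. The WT mean was 2.31 times that of H375A (edgeR log2 change -1.12, SE 0.23, adjusted p = 6.22e-04), and the call held with any library left out. Its direct neighbours A138 and A140 were near background, at 0.235% and 0.427% with DMS in WT and 0.249% and 0.386% in H375A. Other tested neighbours within 10 bases went both ways, and none passed (edgeR adjusted p = 0.394 to 0.987). Upstream, C130, C131, A135 and C136 had log2 changes of -0.65, -0.43, -0.03 and -0.83. Downstream, A140 had -0.20, while A145, A147, A148 and C149 had 0.35, 0.39, 0.33 and 0.21. The mean scaled rates, which weigh libraries equally, were slightly lower in H375A at A145 (1.18% against 1.19%) and C149 (0.811% against 0.844%). At A147 and A148 they were higher in H375A.

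A515 read 4.21%, 4.87%, 4.07% and 3.80% with DMS in WT and 2.16%, 3.15%, 2.30% and 2.95% in H375A, again without overlap. Untreated it read 0.837% ± 0.464 in WT, where replicate 4 gave 1.53%, and 0.408% ± 0.280 in H375A. The WT mean was 1.60 times that of H375A (edgeR log2 change -0.75, SE 0.22, adjusted p = 0.0286). It lost the call when WT replicate 2 (0.263), 3 (0.0969) or H375A replicate 3 (0.487) was left out, with no scaling (0.0711), with DESeq2 (0.300) and with the replicate number as a block (0.0586).

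A534 read 1.44%, 4.73%, 4.52% and 4.23% with DMS in WT and 1.38%, 3.05%, 2.43% and 0.875% in H375A, with untreated means of 0.270% ± 0.118 and 0.242% ± 0.0933. The genotypes overlapped through replicate 1 of WT, which lay near replicate 1 of H375A. The WT mean was 1.93 times that of H375A (edgeR log2 change -0.80, SE 0.23, adjusted p = 0.0346). The call ended without WT replicate 2 (0.263), 3 (0.259) or 4 (0.0966), without H375A replicate 3 (0.134) or 4 (0.0918), with no scaling (0.0679) and with DESeq2 (0.300). The adjacent A535 read 1.26% ± 0.595 in WT and 0.637% ± 0.163 in H375A (log2 change -0.87, edgeR adjusted p = 0.236). The next site, C536, went the other way, at 0.721% in WT and 1.66% in H375A (log2 change 0.69, edgeR adjusted p = 0.469). No tested neighbour of A534 within 10 bases passed, and they went both ways. Without replicate 1 of both genotypes 5 sites were called in the domain, these 4 and A521 (adjusted p = 0.0302).

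**Figure D5:**
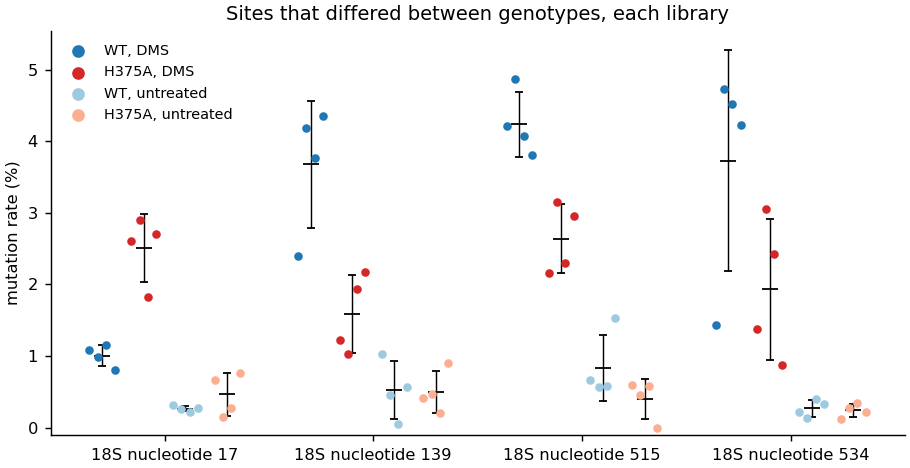
Mutation rate (%) in each library at the 4 sites called between genotypes; points are libraries of the 4 groups, black bars the mean ± SD of 4. At C17 the H375A DMS points lie above those of WT; at C139 and A515 they lie below without overlap, and at A534 the groups overlap.

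On rates less the untreated rate of the same number, limma called none of the 4, with log2 changes of 1.38 at C17 (adjusted p = 0.454), -1.46 at C139 (0.478), -0.54 at A515 (0.811) and -0.99 at A534 (0.692). The test of the genotype by treatment interaction, which asks whether the DMS response itself differed, called 0 of 219 sites in the domain by edgeR (0% of all 725 tested, lowest adjusted p in the domain 0.505). Unadjusted, 4 of the 219 had a p under 0.05, against 5.24% of all sites, and DESeq2 also called 0. The interaction log2 changes were 0.71 at C17, -0.92 at C139, -0.21 at A515 and -0.96 at A534, with adjusted p of 0.998 at each.

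The genotypes did not overlap in deposited rates at 6 of the 219 sites, 2.74%, where 5.24% of all tested sites did not: C17, C18, C139, A387, C469 and A515. C469 read 1.47%, 1.60%, 1.39% and 1.5% with DMS in WT and 0.206%, 0.914%, 0.930% and 0.580% in H375A, tight in WT and wide in H375A. Its untreated means were 0.159% and 0.411%, and the difference did not pass (edgeR log2 change -0.84, adjusted p = 0.134). A387 read 1.43%, 1.93%, 1.57% and 1.71% in WT and 3.56%, 2.26%, 2.34% and 2.22% in H375A (log2 change 0.52, edgeR adjusted p = 0.203). A521, 6 bases behind A515, had the lowest p of the uncalled sites, at 0.548%, 0.902%, 0.742% and 0% in WT and 0.244%, 1.17%, 1.65% and 2.31% in H375A (log2 change 1.10, edgeR adjusted p = 0.112). A257 (0.623% against 1.12%, log2 change 0.93) and A360 (1.35% against 0.759%, log2 change -0.76) did not pass either (edgeR adjusted p = 0.167 and 0.203).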

How the data were processed

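The data were pre-rRNA profiles by DMS-MaPseq from 16 libraries. Per the file headers, the authors deposited for each nucleotide counts of mutated reads and of reads covering it, in all and of sufficient quality (effective depth), and a mutation rate as a fraction; in the values this equals mutated reads over effective depth, with no untreated rate subtracted. The aligner, mutation caller and read filters are not named in the labels or headers; they act on all rates, and the many rDNA copies were read as 1 sequence.

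Members and site lists were chosen with earlier results of these data known. Counts were tested with edgeR 4.0.16 (glmQLFTest, R 4.3.3) with log effective depth as offset, and p-values adjusted by Benjamini-Hochberg over all sites tested from the transcript's 5′ end to the A2 site. The edgeR log2 changes give deeper libraries more weight, while group means weigh libraries equally, so the size or sign can differ. Sites needed a depth of 100 in every library. The DMS comparison of genotypes also used a scaling factor per library (the median ratio over 594 sites), a rise of at least 0.2 percentage points and an untreated rate under 5%; DMS against untreated needed 10 mutated reads in all; the untreated comparison 10 per library on average. Named sites were those called, the A and C of both snoRNA segments, the 12 highest rises, known 2′-O-methylated A and C, the 5 lowest uncalled p and the 5 highest untreated means; neighbours and C18 were named after their values were seen. Alternatives used DESeq2 1.42.0, limma 3.58.1 (pseudocount 0.1 percentage points), other scaling, filters and left-out libraries. The tests of genotype with DMS and of DMS in WT were run on simulated counts. Both missed part of the sites changed in the simulation, the test of DMS in WT more than that of genotype. A site left uncalled may therefore still differ. The numbers link each treated library with its untreated control by the series' design text (correlations of their deviations from group means 0.066 to 0.204 in WT and -0.007 to 0.175 in H375A).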

Additional observations from a re-analysis of the deposited data

Results flagged for a closer look

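In 15 of 174 groups of 4 libraries, 1 library lay far from the other 3 by Dixon's test (the gap to the nearest library over the range of the group). For 4 values of equal normal spread, chance gives about 1 in 20, or 8.70. These rates come from libraries of unequal depth and the groups share libraries, so 8.70 is not their chance expectation. The groups were mostly those of the sites named above, with mean rates over the domain among the rest, and all 15 were at single sites. At A11 in the WT DMS group the gap over range was 0.918, replicate 4 being low at 0.412%, and in untreated WT 0.851, replicate 3 being high at 0.206%. In the WT DMS group it was 0.879 at C13 (replicate 1 high, 0.648%), 0.954 at C14 (replicate 4 at 0%), 0.879 at C90 (replicate 4 high, 1.46%), 0.838 at C414 (replicate 4 high, 0.741%), 0.848 at A534 (replicate 1 low, 1.44%) and 0.931 at A594 (replicate 1 low, 1.83%). In the H375A DMS group it was 0.873 at C99 (replicate 1 high, 2.71%), 0.904 at A387 (replicate 1 high, 3.56%) and 0.948 at A599 (replicate 1 low, 0.741%). In untreated H375A it was 0.876 at A360 (replicate 4 at 0%) and 0.905 at A420 (replicate 4 high, 1.12%). In untreated WT it was 0.894 at A515 (replicate 4 high, 1.53%) and 0.957 at A541 (replicate 4 high, 1.15%). In 14 of the 15 the odd library was replicate 1 or 4, which had the lowest median depths in every group.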

How the results depend on the processing

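The 4 sites called between genotypes in DMS libraries became 2 with no scaling factor, 2 with DESeq2 (no adjusted p for 61 of 219) and 0 with limma on background-subtracted rates, where 13 had an unadjusted p under 0.05; leaving out 1 library at a time gave 2 to 5. All 4 kept their direction under each of these. With the replicate number as a block there were 3, A515 being lost. Nothing in the labels links same-numbered WT and H375A libraries; their deviations correlated at 0.023 to 0.12 with DMS (own number the best match in 3 of 4) and 0.043 to 0.237 without (4 of 4). The mean scaled rate of the domain moved from a log2 difference of 0.030 to -0.096 with 25S scaling. With scaling from G and U sites, 142 sites rose with DMS in WT, where 1 fell, and 152 rose in H375A. The rising sites numbered 122 and 137 with DESeq2, and 162 and 182 with the replicate block, which pairs each library with its control. Leaving out 1 library gave 131 to 169 rising sites in WT and 138 to 177 in H375A. In WT, 1 site fell without DMS replicate 1. Over all alternatives the U14 mean ran from 0.096 to 0.294 and that of box A from -0.915 to -0.409 on A11 alone and -0.244 with C13 and C14 added by dropping the filter. The comparisons of untreated libraries and of the interaction gave 0 calls in the domain under every alternative run. Depth limits the shallow replicates 1 and 4 most, where a rate near background rests on a few mutated reads.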
